A study of Mus musculus with 16 samples.

Results

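The protein kinase genes described here are those on a mouse cDNA array whose symbol begins as that of a MAP kinase, a kinase that activates MAP kinases, a MAP kinase activated kinase, PKA, PKC, PKD, PKG, AMPK, a CaM kinase or a ribosomal S6 kinase. The symbol rule took 143 of 28704 spots. Of these, 136 name 1 gene each and together read 61 genes, and the other 7 list several symbols and are not named. Enough values for a test were present for 56 genes, read by 113 spots. Map3k11, Prkab2, Prkcb, Rps6ka3 and Rps6ka5 had too few. No spot with a single symbol matched Mapk3, Prkca, Camk2a, Camk2b or Rps6kb1, which are not analysed here. The rule goes by letters, so it also takes genes that are not kinases, such as Mapkap1 and Prkcsh.

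Mouse brain RNA was hybridised on 16 arrays, 4 for each of 4 genotypes: wild type (labelled C57BL/6j), Cx43 null, Cx43 heterozygous and Cx32 null (the 3 lines labelled C57BL). The array titles say neonatal for wild type, Cx43 null and Cx43 heterozygous, and give no age for Cx32 null. Gja1 encodes Cx43, which joins astrocytes through gap junctions, and Cx32 forms such channels in oligodendrocytes. Every array carried the same Cy5 reference, pooled from adult aorta, brain, heart, kidney, liver, lung, gonads, spleen and stomach of both sexes. The labels do not say how the alleles were made, or whether RNA came from single animals or pools. P-values therefore measure the spread between these samples, which may be technical.

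Protein kinases pass signals on by adding phosphate to other proteins. MAP kinases stand at the end of a relay of 3 kinases, in which a MAP3K activates a MAP2K and the MAP2K activates the MAP kinase; scaffold proteins hold the relay together. PKA is a tetramer whose regulatory subunits let go of the catalytic subunits when cAMP binds, PKC isoforms answer to diacylglycerol and in part to calcium, CaM kinases answer to calcium bound to calmodulin, and AMPK answers to a fall in cellular energy. In brain these kinases are known for their part in synaptic plasticity and axon growth, and PKC, PKA and MAP kinases are known to phosphorylate Cx43.

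Promoters are shown for 3 members that changed in more than 1 line, the scaffold gene Mapk8ip3 and the PKA subunit gene Prkacb, which fell, and Mapkap1, which rose. Each is the 250 bases before the RefSeq start on GRCm38.p6, written in the direction of the gene: Mapk8ip3 at chr17:24936978-24937227 on the minus strand, Prkacb at chr3:146812947-146813196 on the minus strand and Mapkap1 at chr2:34406521-34406770 on the plus strand. Prkacb has 3 listed starts and Mapkap1 has 2, and the first listed was used. Capitals mark matches on either strand to TGACGTCA (the cAMP response element), TGACG (its shorter form, which lies inside it), GGGCGG (the GC box) and TGANTCA (the AP-1 site).
Mapk8ip3: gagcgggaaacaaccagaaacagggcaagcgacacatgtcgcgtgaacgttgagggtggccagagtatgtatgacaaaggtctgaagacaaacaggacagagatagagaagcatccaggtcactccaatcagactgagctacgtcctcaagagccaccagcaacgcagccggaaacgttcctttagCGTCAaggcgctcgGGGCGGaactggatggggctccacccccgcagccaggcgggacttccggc
Prkacb: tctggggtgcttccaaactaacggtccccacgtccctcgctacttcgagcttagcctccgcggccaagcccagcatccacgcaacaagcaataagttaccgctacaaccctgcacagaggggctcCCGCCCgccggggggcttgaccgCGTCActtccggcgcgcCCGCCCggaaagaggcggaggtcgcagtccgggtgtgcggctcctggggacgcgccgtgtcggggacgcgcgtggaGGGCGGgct
Mapkap1: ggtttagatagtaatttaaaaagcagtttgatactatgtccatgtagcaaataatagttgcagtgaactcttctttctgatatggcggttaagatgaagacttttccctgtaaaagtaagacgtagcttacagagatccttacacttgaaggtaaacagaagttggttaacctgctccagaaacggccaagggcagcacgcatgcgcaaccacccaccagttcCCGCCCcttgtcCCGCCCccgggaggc

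TGACGTCA and TGANTCA have no match in these 3 windows. TGACG matches 1 time in each of the Mapk8ip3 and Prkacb windows. GGGCGG matches 1 time for Mapk8ip3, 3 times for Prkacb and 2 times for Mapkap1. Among 32851 RefSeq windows of the same length, 1.55% hold TGACGTCA, 17.8% hold TGACG, 32.7% hold GGGCGG and 6.75% hold TGANTCA. GC content is 58.0% for Mapk8ip3, 69.2% for Prkacb and 46.4% for Mapkap1. A match is a description of the letters and not a site of binding. Of the 61 member genes, 53 have a RefSeq window.

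Every value below is the log2 ratio of brain to the adult tissue pool, centred on the array's median, or the difference of 2 group means on that scale. Brain as the numerator is likely, since the median of the neuron markers (0.96 to 2.58) lay above that of genes of the other pooled tissues (-5.92 to -3.46) on 16 of 16 arrays. The latter medians, of 7 genes, ran from -4.49 to -3.46 in wild type and from -5.92 to -4.56 in the lines, without overlap. Every comparison with wild type spans that difference, and its part in the kinase values was not tested. The labels state neither the numerator nor the log base, so rises, falls and folds hold if both were read correctly. Arrays gave values for 21010 to 24819 spots, and the number of arrays, 4 per group, limits the precision. Gja1 read 2.47, 1.13, 1.48 and 1.17 in wild type, -0.60, -1.71, -2.10 and -2.92 in Cx43 null, -1.09, -1.27, -1.25 and -1.86 in Cx43 heterozygous and 0.13, 0.10, -0.07 and 0.27 in Cx32 null brain. It was lowest in the Cx43 null and Cx43 heterozygous lines, which overlapped each other. In limma it also fell in Cx32 null brain against wild type, by -1.46 (adjusted p = 0.00986), without overlap. The 2 Cx43 lines lay below Cx32 null brain without overlap but did not pass (adjusted p = 0.0523 and 0.0608). They did not differ from each other (adjusted p = 0.637), so Gja1 does not tell the null label from the heterozygous one. No spot is named Gjb1, the gene of Cx32, so that label was not checked. Wild-type replicate 1 stood apart, with correlations of 0.484 to 0.763 with the other arrays over all transcripts, against 0.85 to 0.918 among wild-type replicates 2 to 4. Cx43 null replicate 1 correlated at 0.882 to 0.896 with wild-type replicates 2 to 4 and at 0.789 to 0.899 with the other Cx43 null arrays. The median SD of the members was 0.32 in wild type, 0.259 in Cx43 null, 0.169 in Cx43 heterozygous and 0.20 in Cx32 null.

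Against wild type, 6 of 56 members changed in Cx43 null brain, 17 in Cx43 heterozygous and 15 in Cx32 null brain, and falls outnumbered rises in each line. A change here is a Benjamini-Hochberg adjusted p under 0.05 in limma, adjusted over 14292 transcripts and fitted on all 16 arrays. In Cx43 null brain 6 members fell, 10.7% of the members, where 10.8% of all transcripts changed, 6.43% of them falling. No member passed as higher there, where 4.37% of all transcripts were higher, although 5 members were higher and 12 lower at an unadjusted p under 0.05. No share of all transcripts is given at that unadjusted threshold, so these counts stand without a background. In Cx43 heterozygous brain 5 rose and 12 fell, 30.4% of the members against 31.0% of all transcripts (13.5% higher and 17.5% lower). In Cx32 null brain 5 rose and 10 fell, 26.8% against 27.3% of all transcripts (13.1% higher and 14.3% lower). Groups did not overlap for 8 members in Cx43 null brain (12.9% of all transcripts), 17 in Cx43 heterozygous (31.1%) and 16 in Cx32 null brain (27.8%). In this fit the members were thus called about as often as any transcript on the array. The median change of the members was -0.03, -0.22 and -0.14 in the Cx43 null, Cx43 heterozygous and Cx32 null lines, beside 0.01, -0.02 and -0.03 over all transcripts. The 3 comparisons share the same 4 wild-type arrays.

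The counts rest on particular arrays and settings. With 1 array left out at a time, the Cx43 null count was lowest, 0, without Cx43 null replicate 3 (0.798% of all transcripts). It was highest, 12, without wild-type replicate 4 (21.4% of members, 20.9% of all transcripts). Without wild-type replicate 2, Cx43 null replicate 2 and Cx43 null replicate 4 it was 3, 1 and 2. These are 5.36%, 1.79% and 3.57% of the members beside 3.39%, 3.55% and 4.09% of all transcripts. The Cx43 heterozygous count was 10 without wild-type replicate 2 (17.9% of the members, 25.5% of all transcripts). It was 11 (19.6%) without Cx43 heterozygous replicate 1, 3 or 4, beside 25.3%, 22.3% and 23.4% of all transcripts. The Cx32 null count was 9 without Cx32 null replicate 2 (16.1% of the members, 19.1% of all transcripts). Without wild-type replicate 1 and Cx43 null replicate 1 together, the counts were 14, 19 and 15 in Cx43 null, Cx43 heterozygous and Cx32 null brain. The last 2 are 33.9% and 26.8% of the members beside 29.4% and 25.3% of all transcripts. That Cx43 null count is 25% of the members beside 14.4% of all transcripts, and without wild-type replicate 1 alone 7 members, 12.5%, passed beside 5.79%. In Cx43 null brain the members' share was thus near that of all transcripts in the reported fit. It was furthest above it in these 2 fits, with array weights (33.9% beside 28.4%) and with each spot on its own (28.6% beside 14.9%). In the last of these a gene counts if any of its spots passes. Members have more spots per gene, 113 for 56 genes beside 19951 for 14292 transcripts, and so more openings to pass. Other fits gave smaller gaps in both directions. Spots with a value on all 16 arrays gave 15% beside 12.8%, and leaving out Cx43 null replicate 1 gave 14.3% beside 17.1%. With quantile normalization and cyclic loess the members' share was furthest below. Quantile normalization left 0 Cx43 null members while 8.07% of all transcripts passed, cyclic loess left 1 while 9.12% passed, and the fit of Cx43 null and wild type alone left 0 of all transcripts. With values as deposited, which moves the median of all transcripts by 0.17 in Cx43 heterozygous brain, the split was 8 higher and 7 lower there and 6 and 6 in Cx32 null brain; with quantile normalization it was 5 and 7, and 6 and 6; with cyclic loess 7 and 9, and 6 and 8. No called member reversed under any alternative. Of the 38 called changes, 13 passed under every setting in which the gene had a value and with every array left out.

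**Figure D1:**
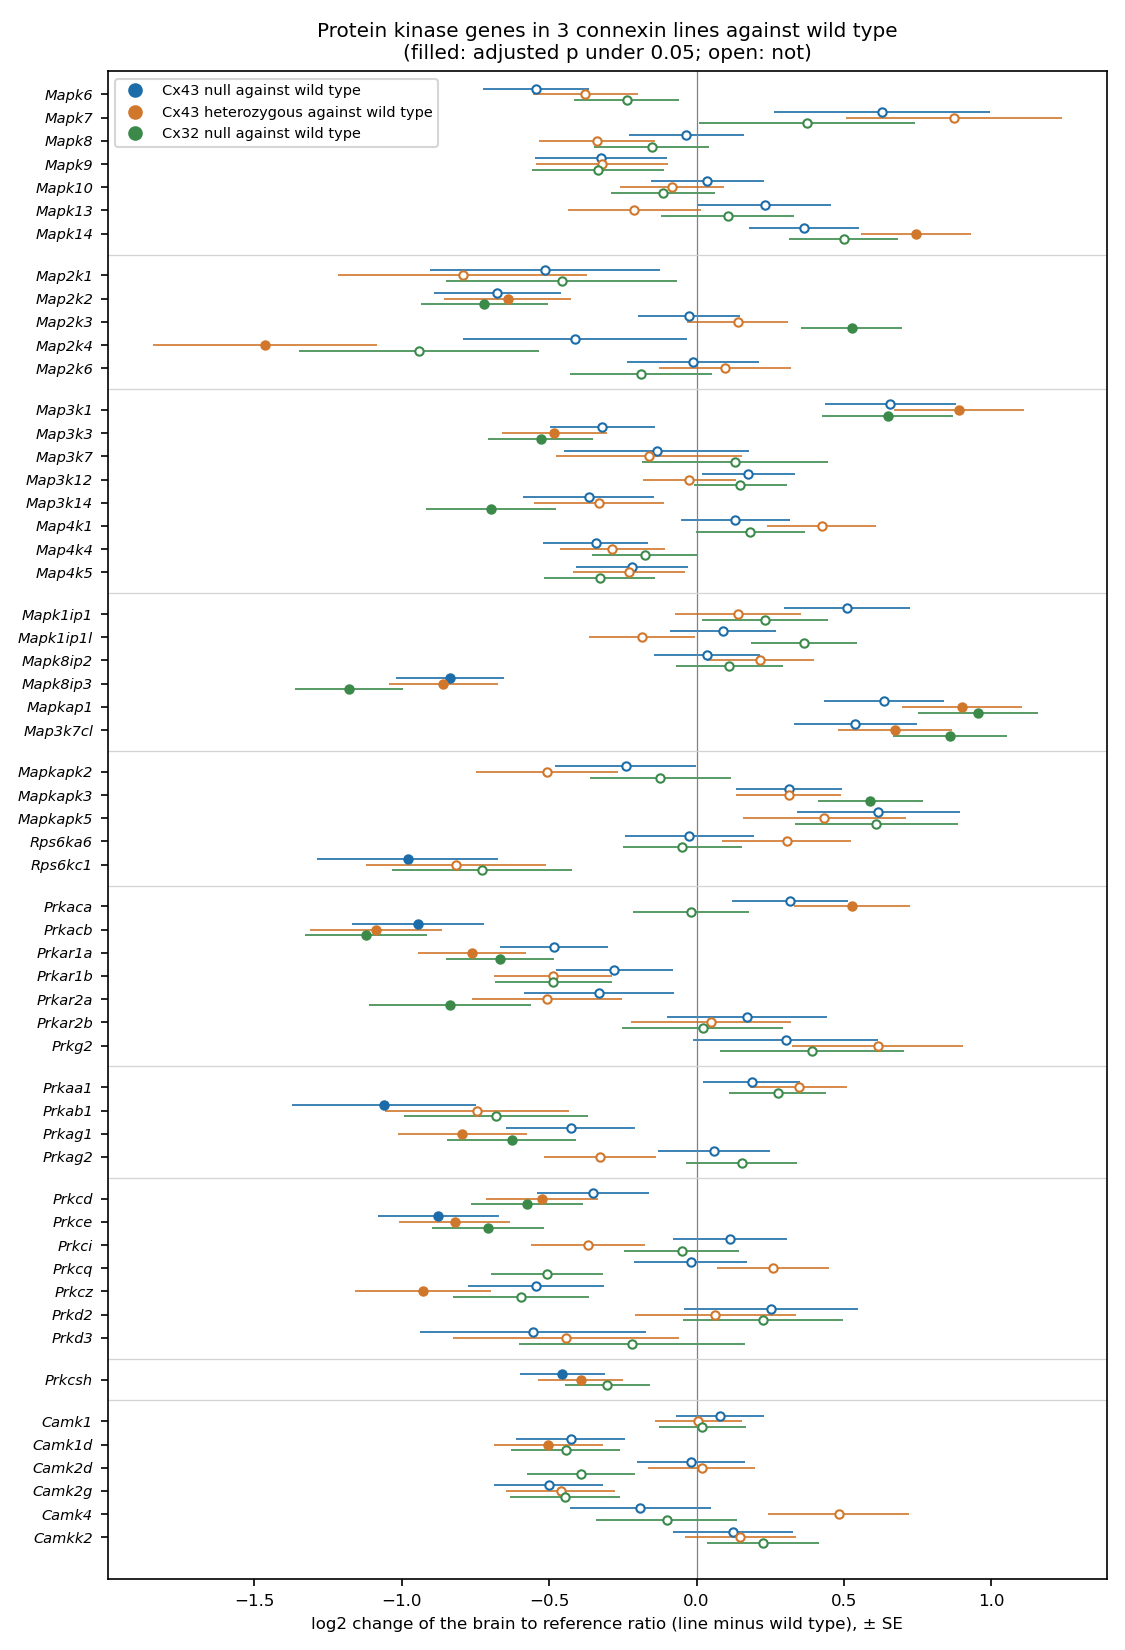
Log2 change of 56 kinase genes (rows, in italics, grouped by family from MAP kinases at the top to CaM kinases at the bottom) in each connexin line against wild type, with standard errors; filled points have an adjusted p under 0.05. Mapk8ip3 and Prkacb lie left of zero and filled in all 3 lines, at -0.84 to -1.18 and -0.95 to -1.12, while most points are open.

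Cell markers moved beside these counts. Of 3 meningeal and choroid plexus genes tested of 6 listed, Ptgds and Dcn fell in all 3 lines, by 1.45 to 2.21 on the log2 scale, and Ttr did not pass in any. The array medians of 4 astrocyte genes ran from 0.81 to 2.41 in wild type and from 0.18 to 0.96 in the lines, where Aldoc fell in Cx43 heterozygous and Cx32 null brain, and Glul fell and Fabp7 rose in Cx43 heterozygous brain. Red blood cell markers (2 of 5 listed) ran from -1.55 to -0.75 in wild type and from -2.83 to -1.16 in the lines. Of 5 microglial genes, C1qa and C1qb fell in all 3 lines while Itgam rose in Cx43 heterozygous and Cx32 null brain and Ctss and Tyrobp rose in Cx43 heterozygous brain, and array medians overlapped (-1.80 to -0.50 in wild type, -1.89 to -0.67 in the lines). Medians of 5 neuronal genes overlapped (0.96 to 2.58 in wild type, 1.36 to 1.96 in the lines), although Syt1 fell in Cx43 heterozygous and Cx32 null brain. Medians of 3 endothelial genes were -1.31 to -0.76 in wild type and higher without overlap in Cx43 heterozygous brain, at -0.73 to -0.40, where Cldn5 rose. Medians of 2 oligodendrocyte genes were -0.91 to -0.21 in wild type and -1.68 to -0.56 in the lines, and Mbp fell in Cx43 heterozygous and Cx32 null brain. A ratio has no zero, so none of these markers can be called absent. The part of cell content in the kinase values was not tested, and in whole brain fewer cells of a type and less RNA per cell cannot be told apart.

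Among the kinases at the top of the MAP kinase relay, 8 of 9 MAP3K and MAP4K genes were tested, and 3 of them changed in some line. Family counts here and below pool the 3 lines, and no share of all transcripts changed in any line is given beside them. The shares in single lines were 10.8%, 31.0% and 27.3%, so these counts are not read as results about a family. Map3k1, a MAP3K known to act upstream of JNK, rose in Cx43 heterozygous and Cx32 null brain. It read -0.93, -1.54, -1.35 and -2.16 in wild type and -0.99, -0.59, -0.92 and -0.86 in Cx43 null brain. In Cx43 heterozygous brain it read -0.46, -0.45, -0.77 and -0.74, and in Cx32 null brain -1.21, -0.62, -0.82 and -0.75. All Cx43 heterozygous arrays lay above all wild-type arrays, while the ranges of the other lines overlapped wild type. The changes were 0.66 ± 0.22 (adjusted p = 0.0604) for Cx43 null, 0.89 ± 0.22 (adjusted p = 0.00683) for Cx43 heterozygous and 0.65 ± 0.22 (adjusted p = 0.0378) for Cx32 null. One of its 2 spots was missing on wild-type replicate 4 and Cx32 null replicate 1; with spots aligned before averaging, a setting added after the data were seen, the Cx43 heterozygous change was 0.77 (adjusted p = 0.004). The Cx32 null call was lost without each of the following arrays, with the adjusted p of the fit without it in parentheses here and below: wild-type replicate 2 (0.0743), wild-type replicate 4 (0.103), Cx32 null replicate 2 (0.102), Cx32 null replicate 3 (0.0721) and Cx32 null replicate 4 (0.0851), the change without wild-type replicate 4 being 0.42. It also ended with quantile normalization (0.65, adjusted p = 0.0863) and the fit of its 2 groups alone (adjusted p = 0.114).

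Map3k3, another MAP3K, fell by 0.48 in Cx43 heterozygous and 0.53 in Cx32 null brain, with an SE of 0.18 in both. It read -0.01, 0.27, 0.08 and 0.64 in wild type, -0.16, -0.12, -0.35 and -0.33 in Cx43 heterozygous and -0.26, -0.46, -0.11 and -0.31 in Cx32 null brain, and neither line overlapped wild type. Its 3 spots did not move alike, reading -1.59, -0.15 and 0.40 and -1.72, -0.21 and 0.34 in those lines, and 1 spot carried the fall. The Cx43 heterozygous call was lost in 6 and the Cx32 null call in 5 of the 8 fits with 1 array left out (adjusted p 0.0606 to 0.122); wild-type replicates 1 and 3 were the arrays whose removal kept both. Among settings, the Cx43 heterozygous call of Map3k3 ended with values as deposited (-0.31, adjusted p = 0.225), at least 2 values per group (-0.48, adjusted p = 0.05), the fit of its 2 groups alone (adjusted p = 0.0946) and spots aligned (-0.46, adjusted p = 0.0525), and the Cx32 null call with values as deposited (-0.45, adjusted p = 0.0914) and the fit of its 2 groups alone (adjusted p = 0.0887). Map3k14, the kinase of the alternative NF-kB pathway, read 0.40, -0.13, 0.04 and -0.04 in wild type and -1.22, -0.37, -0.39 and -0.55 in Cx32 null brain, groups that do not overlap, and fell by 0.70 (SE 0.22, adjusted p = 0.0281). That call was lost without each of wild-type replicate 1 (0.0674) and Cx32 null replicate 1 (0.0952), and with values as deposited (-0.61, adjusted p = 0.0582), the fit of its 2 groups alone (adjusted p = 0.0654) and array weights (-0.48, adjusted p = 0.0538). The remaining 5 (Map3k7, Map3k12, Map4k1, Map4k4 and Map4k5) did not pass in any line, and their changes ran from -0.34 (Map4k4 in Cx43 null) to 0.42 (Map4k1 in Cx43 heterozygous).

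All 5 MAP2K genes listed were tested, and 3 of them changed in some line. Map2k4, which activates JNK and p38, had the largest fall of any member, in Cx43 heterozygous brain. It read 3.84, 3.89 and 2.02 on the 3 wild-type arrays with a value and 2.11, 1.66, 1.65 and 1.73 in Cx43 heterozygous brain. The Cx43 null arrays read 3.41, 3.02, 2.22 and 2.71 and the 3 Cx32 null arrays with a value 2.40, 1.97 and 2.56. Wild-type replicate 4 lay near the lines while replicates 2 and 3 lay well above them, and the Cx43 heterozygous range overlapped wild type by 1 array. The change was -1.46 ± 0.38 (adjusted p = 0.00984) in Cx43 heterozygous, -0.94 ± 0.41 (adjusted p = 0.0934) in Cx32 null and -0.41 ± 0.38 (adjusted p = 0.477) in Cx43 null brain; the first did not pass without wild-type replicate 2 (0.0509).

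Map2k2, a MAP2K of growth factor signalling, read 1.26, 0.64, 0.34 and 0.51 in wild type, -0.01, 0.13, 0.11 and -0.05 in Cx43 heterozygous and 0.26, 0.22, -0.24 and -0.37 in Cx32 null brain. Neither line overlapped wild type. The changes were -0.64 ± 0.22 (adjusted p = 0.0322) and -0.72 ± 0.22 (adjusted p = 0.0214), beside -0.68 ± 0.22 (adjusted p = 0.0517) in Cx43 null brain. The Cx43 heterozygous call was lost without each of wild-type replicate 1 (0.0902), wild-type replicate 2 (0.054), Cx43 heterozygous replicate 1 (0.0658), Cx43 heterozygous replicate 2 (0.0502), Cx43 heterozygous replicate 3 (0.0567) and Cx43 heterozygous replicate 4 (0.0741), and the Cx32 null call without each of wild-type replicate 1 (0.0555), Cx32 null replicate 3 (0.059) and Cx32 null replicate 4 (0.0704). With other settings the first ended under values as deposited (-0.47, adjusted p = 0.0688), quantile normalization (-0.51, adjusted p = 0.0587), the fit of its 2 groups alone (adjusted p = 0.0581) and wild-type replicate 1 and Cx43 null replicate 1 left out together (-0.45, adjusted p = 0.0625), and the second under the fit of its 2 groups alone (adjusted p = 0.0698). Map2k3, which activates p38, rose in Cx32 null brain, where it read 1.32, 1.52, 1.20 and 1.68 against 0.72, 0.93, 1.06 and 0.91 in wild type, with no overlap. Its change was 0.53 ± 0.17 (adjusted p = 0.0318), and it was -0.03 in Cx43 null and 0.14 in Cx43 heterozygous brain. The call was lost without each of wild-type replicate 1 (0.0591), wild-type replicate 2 (0.0572), Cx32 null replicate 2 (0.077) and Cx32 null replicate 4 (0.0967), and with the fit of its 2 groups alone (adjusted p = 0.0734) and wild-type replicate 1 and Cx43 null replicate 1 left out together (0.47, adjusted p = 0.0555). Map2k1 and Map2k6 did not pass in any line; the wild-type values of Map2k1 ran from -0.75 to 1.71, the highest being replicate 1.

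Of 7 MAP kinases, Mapk14 alone changed, in 1 line. Mapk14, the alpha form of p38, a MAP kinase of stress signalling, read -0.86, 0.05, -0.46 and -0.05 in wild type and 0.37, 0.55, 0.30 and 0.43 in Cx43 heterozygous brain. It read -0.11, -0.08, 0.27 and 0.05 in Cx43 null and 0.13, 0.25, 0.09 and 0.20 in Cx32 null brain. The Cx43 heterozygous and Cx32 null arrays all lay above the wild-type arrays, and Cx43 null overlapped them. The changes were 0.74 ± 0.19 (adjusted p = 0.00713), 0.50 ± 0.19 (adjusted p = 0.0543) and 0.36 ± 0.19 (adjusted p = 0.191) in the same order. The higher reading of its 2 spots has no value on wild-type replicate 1, which lowers the gene's mean there; with the spots aligned, the changes were 0.64 (adjusted p = 0.00701), 0.39 (adjusted p = 0.0736) and 0.26 (adjusted p = 0.28). That spot also lies in a block of spots out of step on wild-type replicate 3, and without such blocks Mapk14 passed in Cx32 null brain as well, at 0.76 (adjusted p = 0.00332). It passed there also with values as deposited (0.58, adjusted p = 0.041) and spots with a value on all 16 arrays (0.76, adjusted p = 0.00292), and without wild-type replicate 2, at 0.62 (adjusted p = 0.0314), or replicate 4, at 0.59 (adjusted p = 0.0284). In Cx43 heterozygous brain both spots rose, by 0.57 and 0.61.

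The JNK genes did not pass. Mapk8 (JNK1) read 1.61, 1.63, 1.74 and 1.57 in wild type, 1.59, 1.71, 1.27 and 1.85 in Cx43 null, 1.67, 1.41, 1.08 and 1.03 in Cx43 heterozygous and 1.22, 1.57, 1.25 and 1.90 in Cx32 null brain. The groups overlapped, and its changes of -0.03 ± 0.20 (adjusted p = 0.921), -0.34 ± 0.20 (adjusted p = 0.192) and -0.15 ± 0.20 (adjusted p = 0.585) had 95% intervals of -0.44 to 0.38, -0.75 to 0.07 and -0.56 to 0.26. The sign of the Cx43 null and Cx32 null values turned under quantile and cyclic loess normalization. Mapk9 and Mapk10, the other JNK genes, differed from wild type by -0.32, -0.32 and -0.34, and by 0.04, -0.08 and -0.11, in Cx43 null, Cx43 heterozygous and Cx32 null brain. Mapk6 (ERK3) was -0.54 ± 0.18 (adjusted p = 0.0559) in Cx43 null and -0.38 ± 0.18 (adjusted p = 0.114) in Cx43 heterozygous brain, neither overlapping wild type, and Mapk7 (ERK5) was 0.87 in Cx43 heterozygous brain, also without overlap (adjusted p = 0.0786).

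Of 6 scaffolds and other genes named after a MAP kinase or a MAP3K, 3 changed. Mapk8ip3 went downward in all 3 lines, and Mapkap1 and Map3k7cl went upward in Cx43 heterozygous and Cx32 null brain. Mapk8ip3, also called JIP3, is a scaffold of the JNK relay that links cargo to kinesin motors in axons. It read 1.73, 2.31, 1.91 and 1.91 in wild type and 1.64, 1.11, 0.86 and 0.90 in Cx43 null brain. It read 1.09, 1.18, 1.10 and 1.05 in Cx43 heterozygous and 0.78, 0.96, 0.67 and 0.72 in Cx32 null brain. The highest value in any line, 1.64 on Cx43 null replicate 1, was below the lowest in wild type, 1.73. The falls were -0.84 ± 0.18 (adjusted p = 0.0156), -0.86 ± 0.18 (adjusted p = 0.00291) and -1.18 ± 0.18 (adjusted p = 0.000739) for Cx43 null, Cx43 heterozygous and Cx32 null. Both of its spots fell in each line, by 0.95 and 0.72, 0.90 and 0.82, and 1.52 and 0.84. The Cx43 null call did not pass without Cx43 null replicate 3 (0.0674) or with quantile normalization (-0.48, adjusted p = 0.106) and the fit of its 2 groups alone (adjusted p = 0.152). The other 2 passed in every fit, and quantile normalization moved the Cx43 heterozygous change to -0.55 (adjusted p = 0.0399).

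Mapkap1, also called SIN1, is a subunit of the mTORC2 complex and no kinase. It read -1.41, -1.01, -1.01 and -0.53 in wild type and -0.72, -0.15, -0.06 and -0.48 in Cx43 null brain. It read -0.13, -0.20, 0.16 and -0.17 in Cx43 heterozygous and -0.35, 0.12, 0.03 and 0.07 in Cx32 null brain. The latter lines lay wholly above wild type, and Cx43 null overlapped it through replicate 1. The changes were 0.90 ± 0.20 (adjusted p = 0.00395) and 0.95 ± 0.20 (adjusted p = 0.00401), and 0.64 ± 0.20 (adjusted p = 0.0522) in Cx43 null brain.

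Map3k7cl, named for its likeness to one end of Map3k7, read -1.47, -1.11, -1.02 and -0.54 in wild type, -0.49, -0.31, -0.26 and -0.39 in Cx43 heterozygous and -0.03, -0.04, -0.49 and -0.13 in Cx32 null brain, all above wild type. It rose by 0.67 ± 0.19 (adjusted p = 0.0158) and 0.86 ± 0.19 (adjusted p = 0.00554). In Cx43 null brain, with 3 arrays, the change was 0.54 ± 0.21 (adjusted p = 0.0961). Mapkap1 and Map3k7cl are each read by 1 spot, and both passed in those lines whichever array was left out. Mapk8ip2, the scaffold JIP2, did not pass; its changes were 0.04, 0.22 and 0.11.

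**Figure D2:**
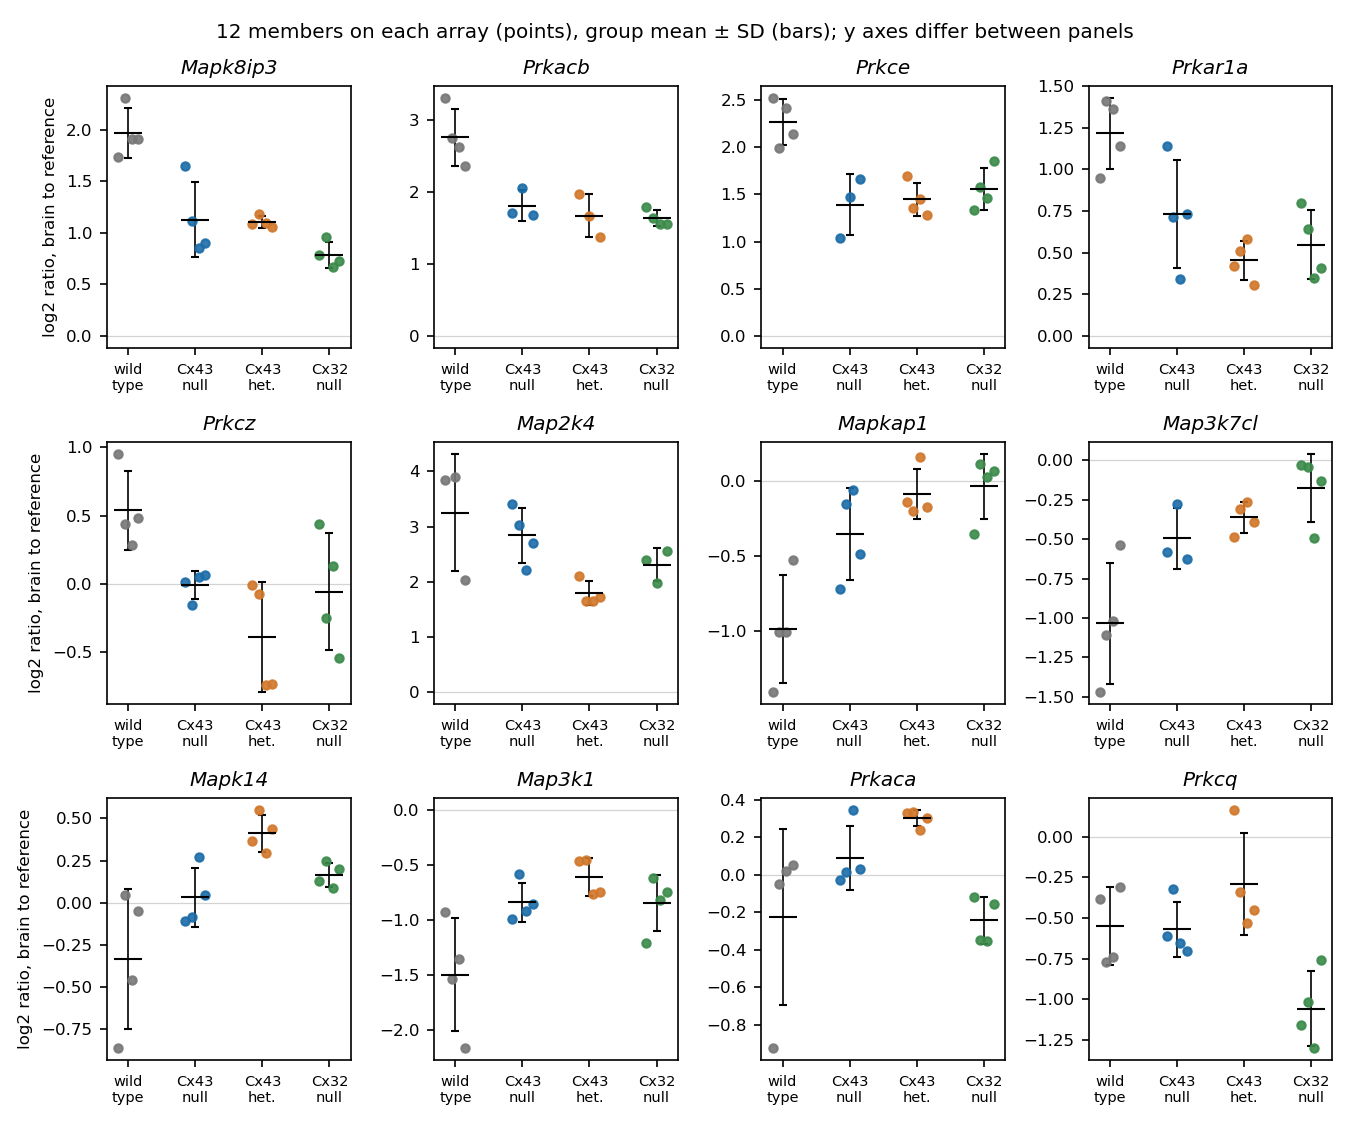
Log2 ratio of brain to reference (vertical axis, which differs between panels) for 12 members on each array; points are arrays in the 4 genotypes and bars the group mean and SD. Mapk8ip3 lies between 0.67 and 1.64 in the 3 lines and between 1.73 and 2.31 in wild type, and Prkaca shows a single low wild-type array at -0.93.

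Among kinases that act after MAP kinases, 2 of 5 tested changed, each in 1 line. Mapkapk3, a substrate of p38, read -0.37, -0.43, -0.06 and -0.63 in Cx32 null and -1.15, -0.98, -0.96 and -0.76 in wild-type brain, with no overlap. It rose by 0.59 ± 0.18 (adjusted p = 0.0228), and the call was lost without Cx32 null replicate 3 (0.0733) and with the fit of its 2 groups alone (adjusted p = 0.0576); its 2 spots were higher by 0.29 and 0.89, the smaller not passing alone. Rps6kc1, related to the ribosomal S6 kinases, read 3.05, 2.12 and 1.87 on 3 wild-type arrays and 1.97, 1.26, 0.52 and 1.71 in Cx43 null brain. Its first Cx43 null array lay inside the wild-type range. The fall was -0.98 ± 0.31 (adjusted p = 0.0498), and it was lost without each of wild-type replicate 1 (0.185), wild-type replicate 2 (0.0784), Cx43 null replicate 2 (0.101), Cx43 null replicate 3 (0.167) and Cx43 null replicate 4 (0.0618); without wild-type replicate 1 the change was -0.63. It also ended with quantile normalization (-0.50, adjusted p = 0.192), cyclic loess (-0.73, adjusted p = 0.0801), at least 2 values per group (-0.98, adjusted p = 0.055), the fit of its 2 groups alone (adjusted p = 0.197) and wild-type replicate 1 and Cx43 null replicate 1 left out together (-0.83, adjusted p = 0.0531). In the other lines Rps6kc1 did not overlap wild type but did not pass, at -0.82 ± 0.31 (adjusted p = 0.0522) and -0.73 ± 0.31 (adjusted p = 0.0848). Mapkapk2, Mapkapk5 and Rps6ka6 did not pass in any line.

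PKA genes gave falls in 1 catalytic and 2 regulatory subunits, and a rise in the other catalytic subunit in 1 line. Prkacb, the beta catalytic subunit, fell in all 3 lines. It read 3.30, 2.74, 2.62 and 2.36 in wild type and 1.70, 2.05 and 1.67 on 3 Cx43 null arrays. It read 1.96, 1.67 and 1.37 on 3 Cx43 heterozygous arrays and 1.79, 1.64, 1.55 and 1.55 in Cx32 null brain. No array of a line reached the lowest wild-type array. The falls were -0.95 ± 0.22 (adjusted p = 0.0223), -1.09 ± 0.22 (adjusted p = 0.00277) and -1.12 ± 0.21 (adjusted p = 0.00223) for Cx43 null, Cx43 heterozygous and Cx32 null. The last 2 passed in every fit, while the Cx43 null call was lost without each of Cx43 null replicate 2 (0.0694), Cx43 null replicate 3 (0.059) and Cx43 null replicate 4 (0.0615) and with quantile normalization (-0.43, adjusted p = 0.137), cyclic loess (-0.69, adjusted p = 0.0583) and the fit of its 2 groups alone (adjusted p = 0.153). Quantile normalization moved the Cx32 null change to -0.68 (adjusted p = 0.011). Prkacb is read by 1 spot.

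Prkaca, the alpha catalytic subunit, read -0.93, -0.05, 0.02 and 0.05 in wild type and 0.33, 0.33, 0.24 and 0.30 in Cx43 heterozygous brain, which lay wholly above. It read -0.03, 0.02, 0.35 and 0.03 in Cx43 null and -0.12, -0.35, -0.35 and -0.16 in Cx32 null brain. Cx43 null and Cx32 null overlapped wild type, whose spread came from replicate 1. The changes were 0.53 ± 0.20 (adjusted p = 0.0495), 0.32 ± 0.20 (adjusted p = 0.284) and -0.02 ± 0.20 (adjusted p = 0.948) in the same order. The Cx43 heterozygous rise was lost in 6 of 8 fits with 1 array left out, wild-type replicates 3 and 4 being the exceptions, and without wild-type replicate 1 it was 0.29 (adjusted p = 0.125). It ended also with quantile normalization (0.45, adjusted p = 0.0547), at least 2 values per group (0.53, adjusted p = 0.0519), each spot on its own (0.53, adjusted p = 0.0533), the fit of its 2 groups alone (adjusted p = 0.127) and wild-type replicate 1 and Cx43 null replicate 1 left out together (0.29, adjusted p = 0.115).

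Prkar1a, a regulatory subunit, read 0.95, 1.41, 1.37 and 1.14 in wild type and 1.14, 0.72, 0.34 and 0.73 in Cx43 null brain. It read 0.42, 0.51, 0.58 and 0.31 in Cx43 heterozygous and 0.80, 0.64, 0.35 and 0.41 in Cx32 null brain. The latter lines lay wholly below wild type, and Cx43 null overlapped it through replicate 1. The falls were -0.76 ± 0.18 (adjusted p = 0.00579) and -0.67 ± 0.18 (adjusted p = 0.0144), beside -0.48 ± 0.18 (adjusted p = 0.0888) in Cx43 null brain. All 3 spots of Prkar1a were lower in each line (-0.84, -0.82 and -0.72 in Cx43 heterozygous, -1.09, -0.70 and -0.30 in Cx32 null, -0.74, -0.64 and -0.16 in Cx43 null). One of these spots lies in a block of spots out of step on wild-type replicate 4; without such blocks the Cx32 null change was -0.50 (adjusted p = 0.078) and the Cx43 heterozygous call held. The Cx32 null call also ended with quantile normalization (-0.46, adjusted p = 0.0726) and spots with a value on all 16 arrays (-0.50, adjusted p = 0.0721). Prkar1a passed in Cx43 null brain with array weights (-0.62, adjusted p = 0.00468) and wild-type replicate 1 and Cx43 null replicate 1 left out together (-0.71, adjusted p = 0.0138), and without Cx43 null replicate 1 alone, at -0.62 (adjusted p = 0.0304). Prkar2a, another regulatory subunit, read 2.30, 1.37, 0.85 and 1.29 in wild type and 0.19, 0.82 and 0.84 on 3 Cx32 null arrays, without overlap. Its fall was -0.84 ± 0.28 (adjusted p = 0.0342), lost without each of wild-type replicate 1 (0.0714), wild-type replicate 2 (0.0549), Cx32 null replicate 1 (0.141) and Cx32 null replicate 2 (0.0506), and -0.55 without wild-type replicate 1. Other settings that ended it were quantile normalization (-0.56, adjusted p = 0.0558), cyclic loess (-0.62, adjusted p = 0.0673), the fit of its 2 groups alone (adjusted p = 0.115) and wild-type replicate 1 and Cx43 null replicate 1 left out together (-0.55, adjusted p = 0.0533). Prkar1b was -0.28, -0.49 and -0.49 and Prkar2b 0.17, 0.05 and 0.02, and neither passed. Prkg2, a cGMP-dependent kinase, did not pass either.

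Of 4 AMPK subunit genes tested, 2 fell in some line. Prkag1, a gamma subunit, which binds AMP, read -0.50, 0.36, 0.24 and 0.73 in wild type and -0.67, -0.59, -0.62 and -0.47 in Cx43 heterozygous brain. It read 0.12, -0.14, -0.25 and -0.62 in Cx43 null and -0.34, -0.37, -0.39 and -0.59 in Cx32 null brain. Wild-type replicate 1 lay among the lines while replicates 2 to 4 lay above every array of the lines. The falls were -0.79 ± 0.22 (adjusted p = 0.0122) and -0.63 ± 0.22 (adjusted p = 0.0418), beside -0.43 ± 0.22 (adjusted p = 0.192) in Cx43 null brain. Only 1 of its 2 spots fell (-1.13 and -0.11 and -0.96 and 0.05), and the Cx32 null call was lost in 7 of 8 fits with 1 array left out (adjusted p 0.0625 to 0.111), the fit without wild-type replicate 1 being the exception. That call also ended with values as deposited (-0.55, adjusted p = 0.0882), the fit of its 2 groups alone (adjusted p = 0.108) and spots aligned (-0.55, adjusted p = 0.0509), and spots with a value on all 16 arrays (-0.96, adjusted p = 0.00379) moved it upward in size.

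Prkab1, a beta subunit, read 2.23, 0.57, 0.66 and 0.82 in wild type and -0.27, -0.20, 0.20 and 0.31 in Cx43 null brain. The groups did not overlap, but wild-type replicate 1 lay far above the other 3. The fall was -1.06 ± 0.31 (adjusted p = 0.0409), and -0.67 (adjusted p = 0.0843) without that array; 6 of 8 fits with 1 array left out lost the call, those without wild-type replicates 3 and 4 being the exceptions. It was lost also with quantile normalization (-0.84, adjusted p = 0.052), cyclic loess (-0.95, adjusted p = 0.0539), the fit of its 2 groups alone (adjusted p = 0.166) and wild-type replicate 1 and Cx43 null replicate 1 left out together (-0.58, adjusted p = 0.112). Prkaa1, the alpha-1 catalytic subunit, read -0.16, -0.47, -0.35 and -0.79 in wild type, -0.19, -0.18, -0.45 and -0.21 in Cx43 null, 0.11, -0.16, -0.17 and -0.18 in Cx43 heterozygous and -0.31, 0.06, -0.23 and -0.18 in Cx32 null brain. All groups overlapped, and its changes of 0.19 ± 0.16 (adjusted p = 0.454), 0.35 ± 0.16 (adjusted p = 0.117) and 0.28 ± 0.16 (adjusted p = 0.218) had intervals of -0.16 to 0.53, 0.00 to 0.69 and -0.07 to 0.62. Prkaa1 passed in Cx43 heterozygous brain with values as deposited (0.52, adjusted p = 0.0342), array weights (0.35, adjusted p = 0.0396) and wild-type replicate 1 and Cx43 null replicate 1 left out together (0.44, adjusted p = 0.0447), and without wild-type replicate 1 alone, at 0.44 (adjusted p = 0.0455). Its 6 spots included both signs in each line, and 1 spot passed as higher in each.

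Of 7 PKC and PKD genes tested, 3 changed in some line, all downward. The falls numbered 1, 3 and 2 in Cx43 null, Cx43 heterozygous and Cx32 null brain. Prkce, a PKC that needs diacylglycerol but not calcium, fell in all 3 lines. It read 2.52, 1.99, 2.42 and 2.14 in wild type and 1.04, 1.48 and 1.66 on 3 Cx43 null arrays. It read 1.69, 1.35, 1.46 and 1.28 in Cx43 heterozygous and 1.34, 1.58, 1.47 and 1.86 in Cx32 null brain. Every array of a line lay below every wild-type array. The falls were -0.88 ± 0.20 (adjusted p = 0.0196), -0.82 ± 0.19 (adjusted p = 0.00485) and -0.71 ± 0.19 (adjusted p = 0.0131). The Cx43 null call was lost without Cx43 null replicate 2 (0.0793) and Cx43 null replicate 3 (0.0682), and quantile normalization ended all 3, at -0.39 (adjusted p = 0.183), -0.46 (adjusted p = 0.0587) and -0.29 (adjusted p = 0.23). The Cx43 null call ended also with cyclic loess (-0.60, adjusted p = 0.0528) and the fit of its 2 groups alone (adjusted p = 0.153), and cyclic loess moved the Cx43 heterozygous change to -0.55 (adjusted p = 0.025). Prkce is read by 1 spot.

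Prkcz, an atypical PKC that answers to neither calcium nor diacylglycerol, read 0.95, 0.43, 0.29 and 0.48 in wild type and -0.01, -0.08, -0.74 and -0.74 in Cx43 heterozygous brain. It read 0.01, -0.16, 0.05 and 0.06 in Cx43 null and 0.44, -0.25, 0.13 and -0.54 in Cx32 null brain. Cx43 heterozygous and Cx43 null lay wholly below wild type, and Cx32 null overlapped it. The changes were -0.93 ± 0.23 (adjusted p = 0.00694), -0.55 ± 0.23 (adjusted p = 0.12) and -0.59 ± 0.23 (adjusted p = 0.063). Its 3 spots were lower in each line, and the Cx43 heterozygous fall passed in every fit.

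Prkcd, the delta form and a relative of Prkce, fell by 0.52 in Cx43 heterozygous and 0.58 in Cx32 null brain, with an SE of 0.19 in both. It read -0.49, -0.91, -1.07 and -1.43 in wild type and -1.47, -1.48, -1.44 and -1.82 in Cx32 null brain, ranges that nearly touch but do not overlap. In Cx43 heterozygous brain it read -1.42, -1.29, -1.63 and -1.65, overlapping wild-type replicate 4. Its 4 spots disagreed: they read -1.74, -0.94, -0.35 and 0.54 in Cx43 heterozygous and -1.46, -0.97, -0.67 and 0.77 in Cx32 null brain, and in the latter 3 fell and 1 rose past the threshold. The rising spot lies in a block out of step on wild-type replicate 4, and without such blocks the changes were -0.90 (adjusted p = 0.00458) and -0.93 (adjusted p = 0.00516). In the other direction, the Cx43 heterozygous call ended with values as deposited (-0.35, adjusted p = 0.157), quantile normalization (-0.43, adjusted p = 0.134), cyclic loess (-0.31, adjusted p = 0.168), the fit of its 2 groups alone (adjusted p = 0.112) and wild-type replicate 1 and Cx43 null replicate 1 left out together (-0.36, adjusted p = 0.117). The Cx32 null call ended with values as deposited (-0.49, adjusted p = 0.0586), quantile normalization (-0.56, adjusted p = 0.0612), cyclic loess (-0.40, adjusted p = 0.083), the fit of its 2 groups alone (adjusted p = 0.1) and wild-type replicate 1 and Cx43 null replicate 1 left out together (-0.41, adjusted p = 0.0817). The Cx43 heterozygous call was lost without each of wild-type replicate 1 (0.118), wild-type replicate 2 (0.0887), wild-type replicate 3 (0.0527), Cx43 heterozygous replicate 1 (0.0644), Cx43 heterozygous replicate 3 (0.107) and Cx43 heterozygous replicate 4 (0.111), and the Cx32 null call without each of wild-type replicate 1 (0.0831), wild-type replicate 2 (0.0703), Cx32 null replicate 1 (0.0508), Cx32 null replicate 2 (0.0574) and Cx32 null replicate 4 (0.1). Prkci, Prkcq, Prkd2 and Prkd3 did not pass against wild type.

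Of 6 CaM kinase genes, Camk1d changed in 1 line, and Camk4 passed in that line under some other settings. Camk1d, a form of CaM kinase I, read 0.20, 0.70, 1.06 and 0.78 in wild type and 0.20, 0.30, 0.05 and 0.16 in Cx43 heterozygous brain. The groups overlapped through wild-type replicate 1. The change was -0.50 ± 0.18 (adjusted p = 0.0459), and it passed in 1 of 8 fits with 1 array left out, that without wild-type replicate 1. It did not pass with values as deposited (-0.33, adjusted p = 0.251), quantile normalization (-0.44, adjusted p = 0.0799), cyclic loess (-0.41, adjusted p = 0.101), spots with a value on all 16 arrays (-0.61, adjusted p = 0.0542) and the fit of its 2 groups alone (adjusted p = 0.104). Its 3 spots read -0.98, -0.29 and -0.24. In the other lines it was -0.43 ± 0.18 (adjusted p = 0.125) in Cx43 null and -0.44 ± 0.18 (adjusted p = 0.0795) in Cx32 null brain.

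Camk4, the CaM kinase of neuronal nuclei, read 1.69, 1.41, 1.27 and 0.65 in wild type and 1.84, 1.40, 1.66 and 2.06 in Cx43 heterozygous brain. It read 0.71, 1.03, 1.06 and 1.46 in Cx43 null and 1.35, 1.52, 0.73 and 1.02 in Cx32 null brain. The groups overlapped, and the changes of -0.19 ± 0.24 (adjusted p = 0.612), 0.48 ± 0.24 (adjusted p = 0.131) and -0.10 ± 0.24 (adjusted p = 0.776) had 95% intervals of -0.69 to 0.31, -0.02 to 0.99 and -0.60 to 0.40. Quantile and cyclic loess normalization turned the sign of the Cx43 null and Cx32 null values. Camk4 passed as higher in Cx43 heterozygous brain with values as deposited (0.66, adjusted p = 0.0404), quantile normalization (0.75, adjusted p = 0.0213), cyclic loess (0.77, adjusted p = 0.0186) and at least 2 values per group (0.82, adjusted p = 0.0335). Camk2g, a form of CaM kinase II, was -0.50, -0.46 and -0.45 and did not pass, while its 5 spots ran from -1.26 to 0.41 in Cx43 heterozygous brain.

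Prkcsh, the beta subunit of glucosidase II, an enzyme of protein folding and no kinase, fell by 0.46 in Cx43 null and 0.39 in Cx43 heterozygous brain, with an SE of 0.14 in both, and was -0.30 ± 0.14 (adjusted p = 0.121) in Cx32 null brain. It read 0.22, 0.59, 0.35 and 0.51 in wild type, -0.07, 0.03, -0.03 and -0.08 in Cx43 null and 0.04, 0.08, -0.06 and 0.03 in Cx43 heterozygous brain, without overlap. The Cx43 heterozygous call of Prkcsh ended with values as deposited (-0.22, adjusted p = 0.284), quantile normalization (-0.29, adjusted p = 0.13), cyclic loess (-0.26, adjusted p = 0.165), spots with a value on all 16 arrays (-0.36, adjusted p = 0.0624) and the fit of its 2 groups alone (adjusted p = 0.112). Its Cx43 null call ended with values as deposited (-0.45, adjusted p = 0.0674), quantile normalization (-0.38, adjusted p = 0.0961), cyclic loess (-0.36, adjusted p = 0.106), spots with a value on all 16 arrays (-0.31, adjusted p = 0.147), at least 2 values per group (-0.40, adjusted p = 0.0935), blocks out of step left out (-0.46, adjusted p = 0.0517), the fit of its 2 groups alone (adjusted p = 0.199) and spots aligned (-0.40, adjusted p = 0.078). Its 4 spots read -0.74, -0.73, -0.37 and 0.16 in Cx43 null and -0.92, -0.48, -0.25 and 0.08 in Cx43 heterozygous brain. Each of these calls was lost in 7 of 8 fits with 1 array left out, that without wild-type replicate 1 being the exception.

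Members read by more than 1 spot show how far spots of 1 gene can part. Of 29 such genes, 15 had spots of both signs in Cx43 null, 16 in Cx43 heterozygous and 20 in Cx32 null brain. In Cx32 null brain, Map4k5, Prkcd and Prkcsh had spots past the threshold in opposite directions. Map3k1, Mapk6, Mapk8, Mapk8ip3, Mapkapk3, Prkar1a, Prkar1b and Prkcz had all spots on 1 side of zero in each line. Camk2g, Map3k12, Map4k5 and Prkaa1, with 5 or 6 spots, spread over both sides. Of the 143 spots, 14 lie in 5 blocks of 598 consecutive spots that are out of step with the other arrays on some array. The other 27 members tested rest on 1 spot.

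**Figure D3:**
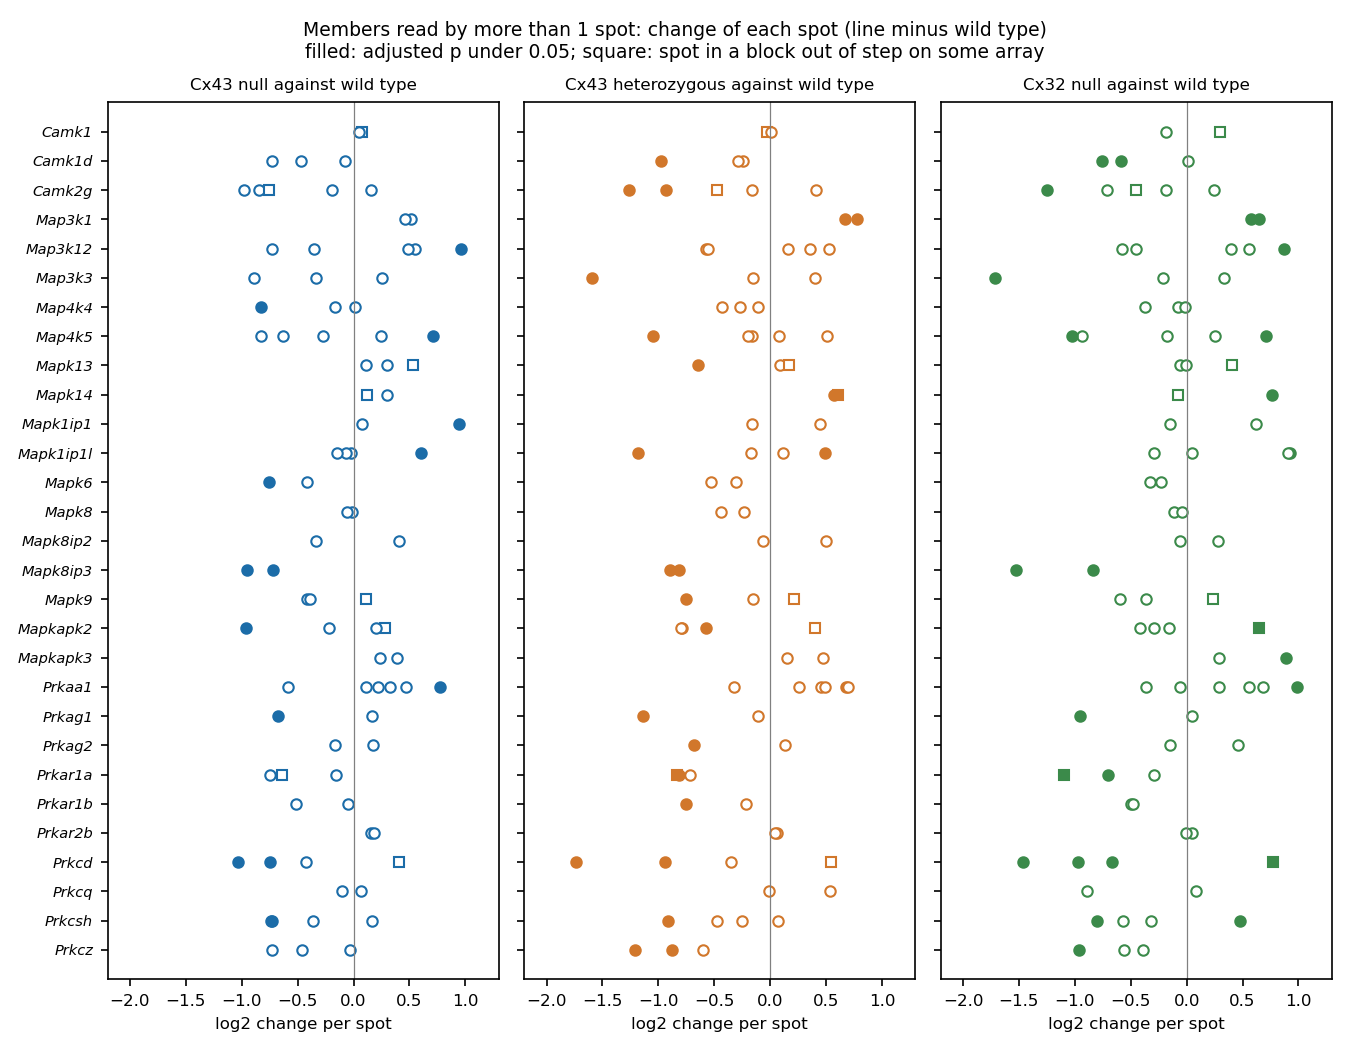
Log2 change against wild type (horizontal axis) of each spot of the 29 members read by more than 1 spot (rows), in 3 panels, 1 per line; filled symbols have an adjusted p under 0.05 and squares lie in a block of spots out of step on some array. The spots of Mapk8ip3 and Map3k1 keep together on 1 side of zero, while those of Prkcd run from -1.46 to 0.77 in Cx32 null brain.

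Between the lines no member passed in limma, where 1.46% of all transcripts differed between Cx43 null and Cx43 heterozygous, 0.0840% between Cx43 null and Cx32 null and 1.23% between Cx43 heterozygous and Cx32 null brain. Groups did not overlap for 5, 4 and 8 members, where 12.4%, 7.88% and 14.0% of all transcripts did not. At an unadjusted p under 0.05 the numbers of members were 3, 3 and 7, with no share of all transcripts given at that threshold. With array weights 6, 2 and 3 members passed, 10.7%, 3.57% and 5.36% of them beside 12.6%, 3.6% and 6.11% of all transcripts. A call in 1 line and none in another is therefore not shown to be a difference between lines. Prkcq, the theta form of PKC, known from T cells, came nearest and is named after its values were seen. It read 0.17, -0.34, -0.53 and -0.45 in Cx43 heterozygous, -1.16, -1.02, -1.30 and -0.76 in Cx32 null, -0.61, -0.32, -0.65 and -0.70 in Cx43 null and -0.38, -0.77, -0.74 and -0.31 in wild-type brain. Cx43 heterozygous lay wholly above Cx32 null. The difference was 0.77 ± 0.19 (adjusted p = 0.0567), and its 2 spots differed by -0.01 and 0.53 in Cx43 heterozygous and by -0.89 and 0.09 in Cx32 null brain against wild type. Map2k4 was higher in Cx43 null than in Cx43 heterozygous brain by 1.05 ± 0.35 (adjusted p = 0.182), again without overlap.

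Genes around these kinases, from lists of pathway partners, held changes in each line. Of 11 Ras and Raf genes tested (of 17 listed), 1 rose and 1 fell in Cx43 null, 1 rose and 3 fell in Cx43 heterozygous and 2 fell in Cx32 null brain. Rasa1, a GTPase activator of Ras, was -1.16 ± 0.19 (adjusted p = 0.000515) in Cx43 heterozygous and -0.91 ± 0.19 (adjusted p = 0.00352) in Cx32 null brain, and Araf, a MAP3K that acts downstream of Ras, was -0.78 ± 0.23 (adjusted p = 0.0426) and -1.04 ± 0.23 (adjusted p = 0.00395) in Cx43 null and heterozygous brain. Of 7 MAP kinase phosphatase genes, 3 fell in Cx43 heterozygous and 2 in Cx32 null brain. In Cx43 null brain none of the 7 passed and 1 had an unadjusted p under 0.05. Dusp7 fell by 1.02 and 0.53 in Cx43 heterozygous and Cx32 null brain, and Dusp14 fell by 0.66 and 0.58; both remove phosphate from MAP kinases.

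Of 13 genes that make, break down or gate cAMP, 2 rose and 2 fell in Cx43 heterozygous and 1 rose and 2 fell in Cx32 null brain. In Cx43 null brain none passed and 2 had an unadjusted p under 0.05. Pde8a, a cAMP phosphodiesterase, was 0.70 ± 0.21 (adjusted p = 0.0178) and 0.79 ± 0.21 (adjusted p = 0.0116), and Pde4a, another, was 1.00 ± 0.20 (adjusted p = 0.00186) in Cx43 heterozygous brain. Gnai2 fell by 1.50 and 1.33 and Gnai1 by 0.69 and 0.86 in Cx43 heterozygous and Cx32 null brain; both encode alpha subunits of G proteins that inhibit adenylyl cyclase. Among 7 A-kinase anchors and PKA inhibitors tested, 1 fell in each of Cx43 heterozygous and Cx32 null brain, namely Akap2, by 0.83 and 1.16. None of these 7 passed in Cx43 null brain, and 0 had an unadjusted p under 0.05 there.

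Ppp3r1, the regulatory subunit of calcineurin, fell by 1.22, 2.03 and 1.94 in Cx43 null, Cx43 heterozygous and Cx32 null brain, with an SE of 0.28 and adjusted p-values of 0.0192, 0.000195 and 0.000511. Ppp3cb, a catalytic subunit of the same phosphatase, fell by 1.12 and 0.85 in Cx43 heterozygous and Cx32 null brain. Of the 7 calmodulin and calcineurin genes tested, Calm3 rose, by 0.88 in Cx32 null brain. Among 10 genes of phospholipase C and diacylglycerol, Dgkq, a diacylglycerol kinase, rose in all 3 lines by 0.71, 0.87 and 0.80, Gnaq fell by 0.78 and 0.66 in Cx43 heterozygous and Cx32 null brain, and Dgke fell by 1.36 in Cx32 null brain. Of 10 nuclear targets, Creb1, the transcription factor that PKA and CaM kinases phosphorylate, rose by 0.90, 0.94 and 0.98 in the 3 lines (adjusted p = 0.0228, 0.00511 and 0.00524). Mef2a, a target of p38, fell by 1.49 in Cx43 heterozygous and 1.12 in Cx32 null brain, and 6 of the 10 fell in Cx43 heterozygous brain. The background shares of transcripts called in these lines, given above, apply to these lists as well. No such share is given for the unadjusted counts.

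**Figure D4:**
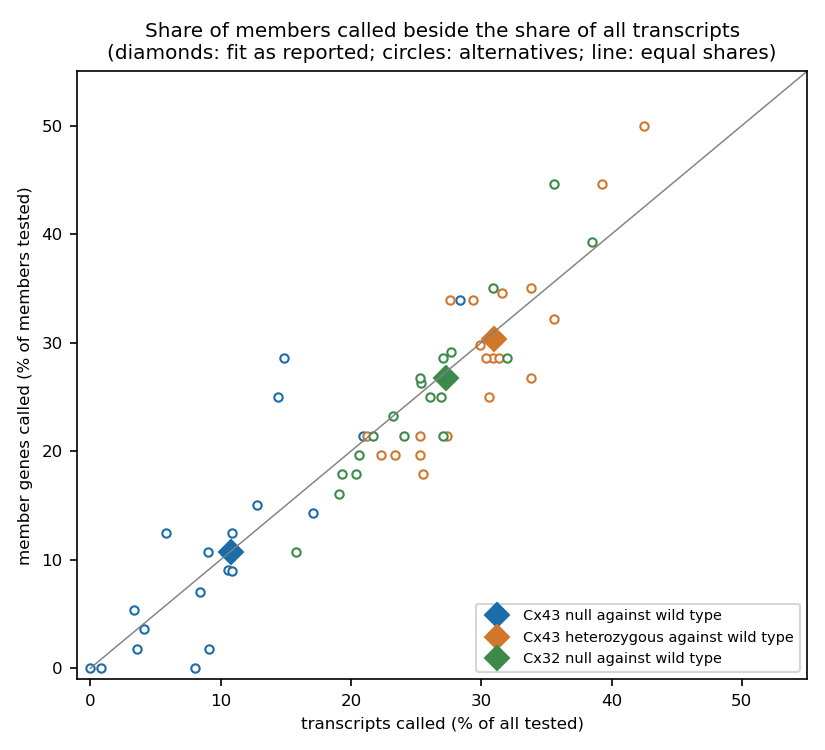
Share of kinase members called (vertical axis, percent of members tested) beside the share of all transcripts called (horizontal axis, percent of transcripts tested) for each line against wild type; diamonds are the fit as reported, circles the alternative settings and arrays left out, and the grey line marks equal shares. The diamonds lie at 10.7% beside 10.8%, 30.4% beside 31.0% and 26.8% beside 27.3%, close to the line.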

How the data were processed

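The authors deposited 1 log ratio per spot and array for 16 arrays, 4 per genotype. These values were read as log2, but the labels state no base, numerator or within-array normalization, and the deposited values carry no intensities or flags. One wild-type array carries conflicting replicate numbers in its labels and is numbered 3 here, after its title. On it and on wild-type replicate 4, no dye is given for the brain RNA. Symbols came from the platform annotation, updated by gene identifier: 18511 of 28704 spots had 1 symbol, 937 several and 9256 no entry here.

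Each array was centred on its median. Spots with fewer than 3 of 4 values in any group were left out (19951 remained), and spots of 1 gene were averaged, giving 14292 transcripts, 8654 of them named genes. Group means were fitted by lmFit and eBayes of limma 3.58.1 under R 4.3.3 as 2-sided tests, with Benjamini-Hochberg adjustment over all transcripts and a threshold of 0.05. Errors after ± are standard errors of that fit. A gene missing on an array was fitted on the remaining arrays.

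Members and lists were chosen with earlier results of these data known. Named members are those called against wild type, up to 10 rises and 10 falls per line, and the best known gene of each family where measured; Prkcsh and Map3k3 exceed the 10 falls in Cx43 heterozygous brain and were added, as were the uncalled genes named beside them, after their values were seen. Partner genes are up to 2 per list, direction and line. The fit was tested on simulated data. Same-numbered replicates deviated together with correlations of -0.257 to 0.226, so numbers were not taken as pairs.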

Additional observations from a re-analysis of the deposited data

Results flagged for a closer look

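In groups of 4 arrays, 8 of the 96 groups tested had 1 array set apart from the other 3 by Dixon's criterion at its 95% critical value; chance gives about 1 in 20. Wild-type replicate 1 read 2.23 for Prkab1, where the others read 0.57 to 0.82, and -0.93 for Prkaca, where the others read -0.05 to 0.05. Cx43 null replicate 3 read 0.35 for Prkaca (others -0.03 to 0.03) and -0.45 for Prkaa1 (others -0.21 to -0.18). Cx43 heterozygous replicate 1 read 2.11 for Map2k4 (others 1.65 to 1.73) and 0.11 for Prkaa1 (others -0.18 to -0.16). For Prkcd, Cx43 null replicate 4 read -1.55 (others -1.26 to -1.24) and Cx32 null replicate 4 read -1.82 (others -1.48 to -1.44).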

How the results depend on the processing

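Settings that moved a count of members called by over 1.5 times were as follows, each with the share of all transcripts passing under the same setting; the cause was not tested. For Cx43 null against wild type (6 called), quantile normalization gave 0 (8.07%), cyclic loess 1 (9.12%) and each spot on its own 16 (14.9%). In the last a gene counts if any of its spots passes, and 28.6% of the members stand beside that 14.9% of all transcripts. Members have more spots per gene (113 for 56 genes beside 19951 for 14292 transcripts), which gives them more openings to pass. The 2 groups alone gave 0 (0%), array weights 19 (28.4%), and removal of wild-type replicate 1 with Cx43 null replicate 1 gave 14 (14.4%). With 1 array left out the count ran from 0 (0.798%) to 12 (20.9%). For Cx43 heterozygous (17) array weights gave 28 (42.5%), and with 1 array left out the range was 10 (25.5%) to 19 (27.6%). For Cx32 null (15) each spot on its own gave 25, 44.6% of the members beside 35.6% of all transcripts, and the 2 groups alone 6 (15.8%). With 1 array left out the range was 9 (19.1%) to 16 (27.1% and 32%). Between lines (0 called), array weights gave 6 for Cx43 null against Cx43 heterozygous (12.6%), 2 for Cx43 null against Cx32 null (3.6%) and 3 for Cx43 heterozygous against Cx32 null (6.11%), where the members' shares were below those of all transcripts. The last gave 1 with values as deposited (1.41%), quantile normalization (1.79%), cyclic loess (1.71%), at least 2 values per group (1.72%) or the 2 groups alone (1.91%), and 2 without the pair of arrays (2.24%).

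Values whose sign turned were all uncalled. Prkaca in Cx32 null brain read 0.0627 as deposited and -0.253 to 0.0731 with 1 array left out. Camk4 in Cx43 null brain read 0.145 with quantile normalization, 0.0344 with cyclic loess, 0.0413 with at least 2 values per group and 0.0724 without the pair of arrays. Camk4 in Cx32 null brain read 0.202, 0.142, 0.419 and 0.0439 in the same order, and -0.303 to 0.0439 with 1 array left out. Mapk8 in Cx43 null brain read 0.327 with quantile normalization, 0.18 with cyclic loess and 0.0413 with array weights, and -0.115 to 0.0784 with 1 array left out. Mapk8 in Cx32 null brain read 0.182 and 0.0789 with quantile normalization and cyclic loess. Prkaa1 from spots with a value on all 16 arrays read -0.186 in Cx43 null and -0.04 in Cx32 null brain.

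With the replicate number as a block, 7, 14 and 14 members passed against wild type in Cx43 null, Cx43 heterozygous and Cx32 null brain. These are 12.5%, 25% and 25% of the members beside 10.9%, 30.6% and 26.9% of all transcripts. Between lines 0 members passed in each comparison, beside 0.987%, 0.035% and 1% of all transcripts in the order used above. Replicate numbers are shared by name only, and 2 of 16 arrays correlated best with their own number. Calls that the block ended were Prkcsh in Cx43 null and Cx43 heterozygous, Camk1d, Map3k3 and Prkaca in Cx43 heterozygous, and Map3k3 and Prkag1 in Cx32 null brain. Aligning spots before averaging and leaving out the pair of arrays were chosen after seeing the data. Signal over background is unknown, since the ratios carry no intensities.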
